A study of Mus musculus with 12 samples.

Results

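The panel of 31 fatty acid oxidation and PPAR genes described here was read in 12 RNA-seq libraries of mouse peritoneal macrophages. It is a list of gene names, chosen with earlier results of these data known. All 31 genes were found among the 24562 genes of the deposited read count table, and 29 of the 31 were high enough to be tested, among 12641 genes tested in all. Ppara and Pdk4 were below the filter on low counts. The cells were taken from female mice, some on chow and some on a diet high in fat (HFD), and had received lipopolysaccharide (LPS), the bacterial membrane component that activates Toll-like receptor 4, for 0 h or 24 h. Each diet was sampled at both times, which makes 4 groups of 3 libraries. Strain, age and HFD composition are not given in the labels. The labels hold no untreated group at 24 h, so the effects of LPS and of elapsed time cannot be told apart, and "with LPS" below means 24 h against 0 h. The labels do not say that the libraries of a group came from separate animals or cultures, so the p-values measure the spread between these libraries only. By its title the study is about hypercholesterolemia and the pentose phosphate pathway, and the genes described here cover how the same cells handle fatty acids.

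Long-chain fatty acids enter cells through carriers such as CD36, are joined to coenzyme A by acyl-CoA synthetases, and cross into mitochondria as carnitine esters. There a cycle of dehydrogenase, hydratase, second dehydrogenase and thiolase shortens them, and the electrons pass through the electron transfer flavoprotein to the respiratory chain. The peroxisome proliferator-activated receptors (PPARs) are nuclear receptors that bind fatty acids and drive many of these genes. PPARγ is the main PPAR of lipid-handling and alternatively activated macrophages, and inflammatory stimuli such as LPS are known to lower it.

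Library totals ran from 2360244 to 20688308 counts. The lowest belongs to HFD 0 h replicate 3, and the next lowest was 9135057, so 3 counts correspond to 1.35 CPM (counts scaled to a fixed library total) in that library against 0.138 in the deepest. All levels below are CPM of a library total scaled by edgeR's TMM method. The label of 4 libraries carries a lane tag, namely the 3 chow 24 h libraries and HFD 24 h replicate 1. All 8 macrophage markers passed the filter, and their summed level was 14665 to 15912 CPM in chow 0 h and 9893 to 11148 CPM in chow 24 h, with 14344 to 15851 and 9939 to 12479 CPM in the HFD groups. Lyz2 led this sum and was lower at 24 h (9659 to 10149 against 3793 to 4849 CPM in chow, 9227 to 11042 against 4098 to 5533 CPM in HFD). Adgre1 was higher at 24 h (383 to 398 against 525 to 912 CPM in chow), also in HFD. So was Fcgr1 in both diets (83.0 to 96.0 against 387 to 479 CPM in chow). C1qa was lower at 24 h in chow (307 to 402 against 94.5 to 251 CPM). Its HFD ranges overlapped (167 to 248 against 76.7 to 171 CPM). Mertk was lower at 24 h in HFD (160 to 196 against 122 to 156 CPM). Its chow ranges overlapped (117 to 164 against 90.3 to 173 CPM). The 0 h and 24 h ranges of Csf1r, Itgam and Cd68 overlapped in both diets. The summed level of 9 mesothelial and stromal markers was 704 to 2103 CPM in chow 0 h, 956 to 2681 CPM in chow 24 h, 622 to 1257 CPM in HFD 0 h and 923 to 999 CPM in HFD 24 h, led by Col1a1. The 6 adipocyte markers, which matter for genes such as Pparg, Cd36 and Angptl4 that fat cells also express, summed to at most 0.0831 CPM in chow 0 h, 0.262 CPM in chow 24 h, 3.14 CPM in HFD 0 h and 0.224 CPM in HFD 24 h, with Adipoq at 0 in all 12 libraries. The 3.14 CPM came from HFD 0 h replicate 3 alone, the shallowest library (Lep at 2.70 CPM and Adrb3 at 0.449 CPM). Every adipocyte marker was at 0 in the other HFD 0 h libraries. The B cell, T and NK cell, neutrophil, mast cell and erythroid lists each summed to at most 28.0 CPM in every library. Large peritoneal macrophage markers summed to 30.7 to 38.4 CPM in chow 0 h, 55.9 to 69.2 CPM in chow 24 h, 22.9 to 60.8 CPM in HFD 0 h and 43.9 to 68.0 CPM in HFD 24 h. Prg4 led that sum at 24 h (4.75 to 11.6 against 22.9 to 35.7 CPM in chow), whereas Gata6, the defining factor of these cells, was at 8.23 to 17.7 CPM in chow 0 h, 5.96 to 16.9 CPM in chow 24 h, 8.73 to 12.7 CPM in HFD 0 h and 4.25 to 6.66 CPM in HFD 24 h. Those of small peritoneal macrophages and dendritic cells summed to 17.9 to 21.8, 11.3 to 14.6, 9.88 to 17.2 and 7.59 to 12.8 CPM. No marker of these lists other than Adipoq was at 0 in every library. The part of these shifts in the LPS results was not tested.

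With LPS, 9 of the 29 tested genes changed in each diet, which is 31% of them. Over all genes tested, 26.6% passed the same test in chow and 24.6% in HFD, so the share of changed genes in the panel was near the background. By direction, in chow 2 genes rose and 7 fell, against a background of 13.7% higher and 12.9% lower, and in HFD 1 rose and 8 fell, against 12.7% and 12%. Acsl1 rose in both diets, and Pparg, Cd36, Ucp2, Etfb, Crat and Hadha fell in both. Acaa1a (higher) and Acaa2 (lower) passed in chow alone, and Acads and Angptl4 (both lower) in HFD alone. No gene of the panel passed the test of the difference between the 2 diets' LPS effects, so none of these 4 is shown to respond differently by diet. The median log2 fold change of the panel was -0.06 in chow and -0.07 in HFD, with 0.00 over all genes in both, and 24 of the 29 genes had the same sign in both diets. In chow the 24 h libraries lay wholly above the 0 h libraries for 5 genes (17.2%, against 22.5% of all genes) and wholly below for 10 (34.5% against 22.9%), and in HFD for 2 (6.9% against 18.2%) and 9 (31% against 17.2%). Calls are by edgeR's quasi-likelihood test with Benjamini-Hochberg adjustment over all 12641 genes at 0.05, and log2 fold changes are given ± SE.

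**Figure D1:**
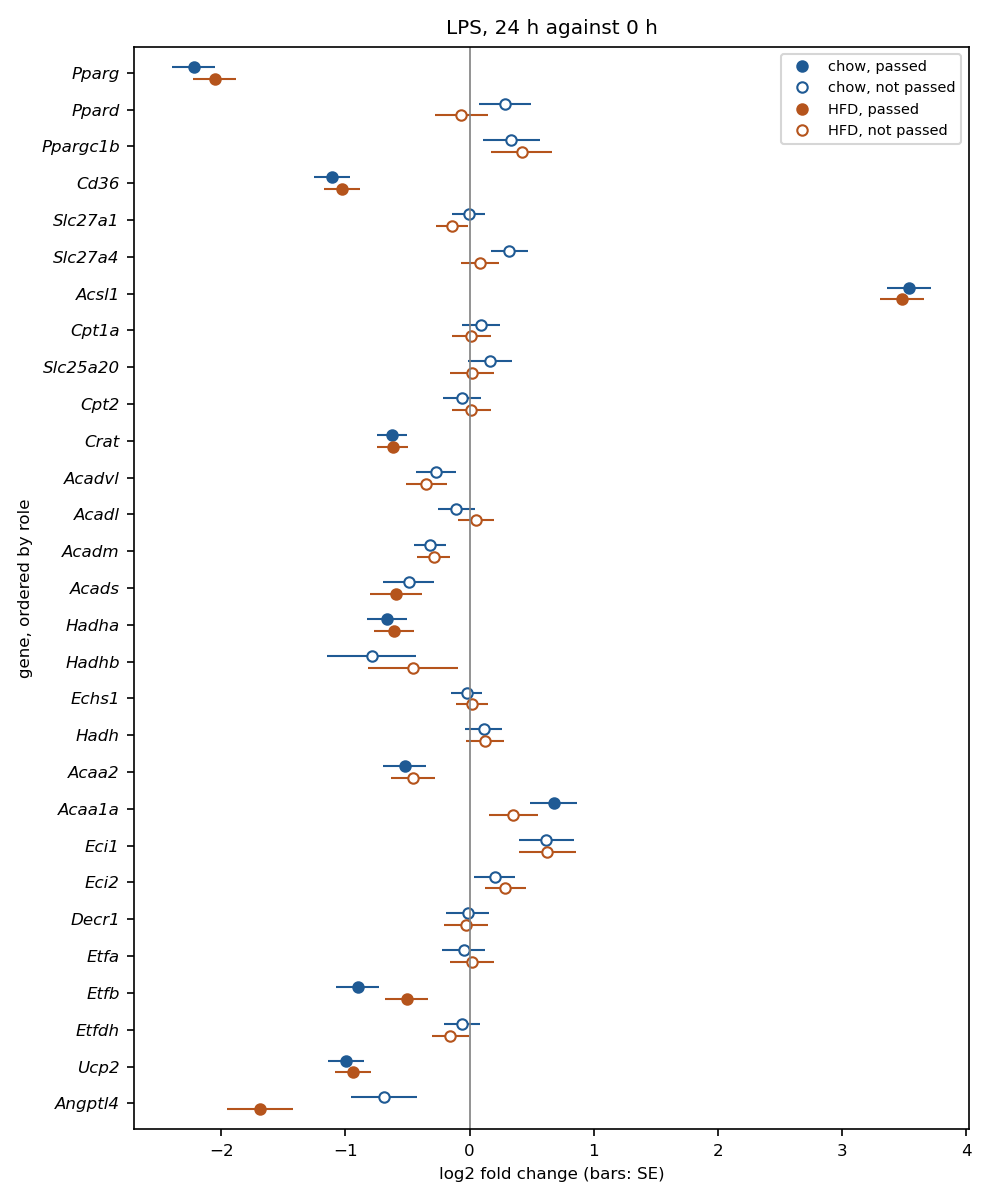
Log2 fold change with LPS (24 h against 0 h, horizontal axis) of the 29 tested genes, ordered by role (vertical axis), in chow (blue) and HFD (orange), with bars of 1 SE; filled circles passed the edgeR test at an adjusted p of 0.05. Acsl1 stands alone at 3.54 and 3.48 and Pparg at -2.22 and -2.05, while most enzymes of the mitochondrial pathway lie between -1 and 1.

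The 3 genes with the most firmly tested changes, Acsl1, Pparg and Cd36, each have RefSeq promoter windows (assembly GRCm38.p6), shown here because these genes moved farthest or were the highest in level. Each run below is the 250 bases before an annotated start, read 5′ to 3′ on the gene's strand, with the nuclear receptor element AGGTCA (either strand) in capitals where it occurs.
Acsl1, chr8:46470787-46471036, plus strand: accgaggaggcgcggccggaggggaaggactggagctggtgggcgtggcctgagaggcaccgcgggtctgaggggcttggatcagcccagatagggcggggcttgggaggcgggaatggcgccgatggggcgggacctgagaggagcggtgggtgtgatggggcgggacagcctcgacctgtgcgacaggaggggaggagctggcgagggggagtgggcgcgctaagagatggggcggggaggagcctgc
Cd36, chr5:17835897-17836146, minus strand: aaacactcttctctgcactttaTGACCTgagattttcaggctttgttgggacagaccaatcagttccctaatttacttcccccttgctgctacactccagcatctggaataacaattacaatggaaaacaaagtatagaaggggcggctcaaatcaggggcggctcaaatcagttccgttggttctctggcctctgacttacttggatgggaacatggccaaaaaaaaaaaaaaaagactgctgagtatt
Pparg, chr6:115421816-115422065, plus strand: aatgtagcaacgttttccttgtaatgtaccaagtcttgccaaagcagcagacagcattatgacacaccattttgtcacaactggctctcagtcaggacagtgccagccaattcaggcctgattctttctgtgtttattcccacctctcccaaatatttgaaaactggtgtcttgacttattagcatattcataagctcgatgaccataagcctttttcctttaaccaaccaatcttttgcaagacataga
The Acsl1 window is 72% G and C and holds no AGGTCA. The Cd36 window is 43.2% G and C and holds the element once, on the opposite strand as TGACCT, at position -228 relative to the start. The printed Pparg window lies at the start of a downstream transcript, 61115 bases from the start of the counted one, is 40.8% G and C and holds no AGGTCA, whereas 2 other Pparg windows (not printed) hold it, at positions -28 and -9. Windows were found for 26 of the 31 genes, 31 windows in all. AGGTCA occurred in 7 of these (22.6%), in Acadm, Acadvl, Cd36, Cpt1a, Echs1 and Pparg, against 14% of 32851 windows of all genes. The full direct repeat (AGGTCA, any base, AGGTCA, on either strand), the pattern of a PPAR response element, occurred in none of the 31 and in 0.0335% of all windows. The repeat of GAAA with any 2 bases between, on either strand, a core of interferon-type elements, occurred in none of the 31 and in 2.98% of all. The AGGTCA counts include any match inside a longer repeat. A match is a description of letters in the window, not a binding site.

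Of the receptors, Pparg fell with LPS. Its level was 71.0, 72.1 and 82.3 CPM in the chow 0 h libraries and 13.7, 13.7 and 20.8 CPM at 24 h. In HFD it was 85.9, 77.2 and 67.8 CPM at 0 h and 20.8, 18.5 and 16.9 CPM at 24 h. Every 24 h library was therefore below every 0 h library in both diets. Pparg changed by -2.22 ± 0.17 in chow (4.66-fold lower, edgeR adjusted p = 3.63e-08) and -2.05 ± 0.17 in HFD (4.14-fold lower, adjusted p = 9.94e-08). The 4 RefSeq transcript rows of Pparg, which share most of their exons, gave log2 ratios of mean CPM between -2.16 and -2.23 in chow and between -1.98 and -2.04 in HFD.

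Ppard, the broadly expressed PPARδ, did not pass. It was at 42.6, 49.99 and 53.3 CPM in chow 0 h, at 63.8, 61.3 and 52.3 CPM in chow 24 h, at 57.9, 35.9 and 82.7 CPM in HFD 0 h and at 59.3, 49.1 and 55.0 CPM in HFD 24 h. The HFD 0 h libraries spread over a wider range than the other groups, and both LPS comparisons overlapped (0.28 ± 0.21, adjusted p = 0.364 in chow, and -0.07 ± 0.21, adjusted p = 0.858 in HFD, by edgeR). Per kilobase of transcript, Pparg was above Ppard at 0 h (35.4 against 14.8 CPM per kilobase in chow) and below it at 24 h (7.56 against 18.05). In HFD the same quantities were 36.2 against 17.96 at 0 h and 8.82 against 16.6 at 24 h.

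Ppara, the PPARα of liver and muscle fat burning, was barely detected, with 14 counts over all 12 libraries. Its levels were 0.0792, 0.0810 and 0.415 CPM in chow 0 h, 0 in all 3 chow 24 h libraries, 0, 0.222 and 0 CPM in HFD 0 h and 0.237, 0.0559 and 0.0462 CPM in HFD 24 h, from 7, 0, 2 and 5 counts in the 4 groups. The 0 counts in the chow 24 h libraries allow up to 0.196 to 0.269 CPM (3 counts per library), so no change of Ppara was detectable at this depth. Limits of this kind cover counting error only.

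Ppargc1b, the coactivator PGC-1β that works with PPARs and estrogen-related receptors on mitochondrial genes, did not pass. Its levels were 7.52, 8.91 and 6.40 CPM in chow 0 h, 9.10, 9.60 and 10.1 CPM in chow 24 h, 7.18, 5.89 and 9.88 CPM in HFD 0 h and 10.3, 7.39 and 11.5 CPM in HFD 24 h. The 3 chow 24 h libraries were above the 3 chow 0 h libraries, whereas the HFD groups overlapped. Its LPS values were 0.34 ± 0.23 in chow (edgeR adjusted p = 0.331) and 0.42 ± 0.25 in HFD (adjusted p = 0.249).

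**Figure D2:**
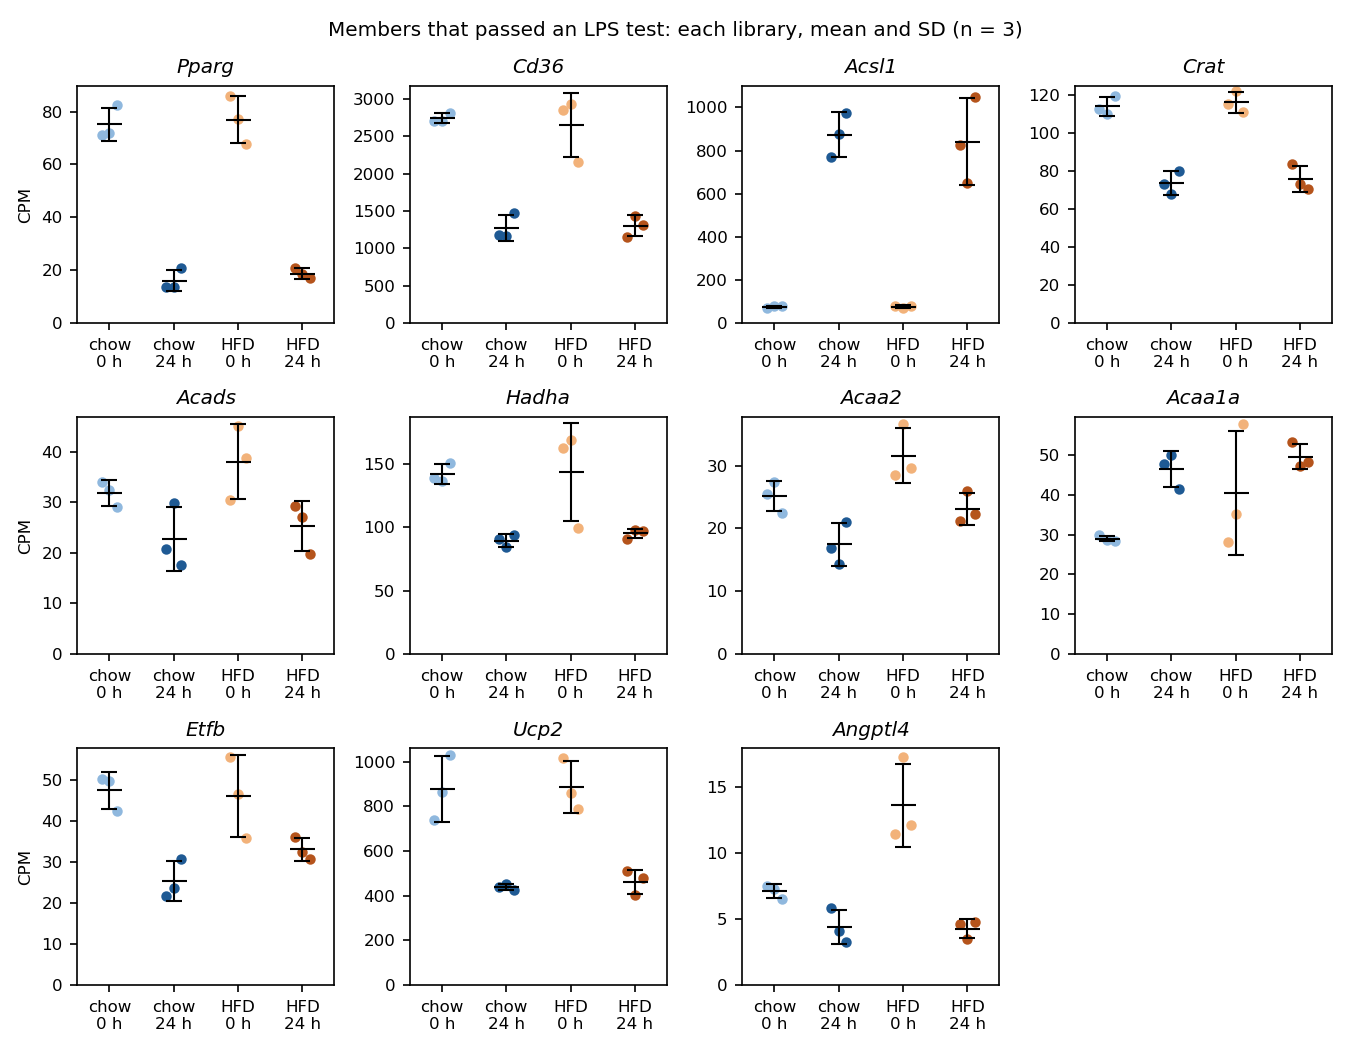
Level of the 11 genes that passed an LPS test in at least 1 diet, in CPM (vertical axes, from 0), in each library (points) of the 4 groups (horizontal axes), with the mean and SD of 3 libraries. Acsl1 is 69.0 to 80.4 CPM in all 0 h libraries and 649 to 1051 CPM in all 24 h libraries, while Acads, Etfb and Acaa1a show groups that touch or overlap in at least 1 diet.

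Acsl1, the acyl-CoA synthetase that activates long-chain fatty acids and is a known LPS-induced gene of macrophages, rose more than any other gene of the panel. It was at 69.0, 78.1 and 78.6 CPM in chow 0 h and at 768, 877 and 976 CPM in chow 24 h. On HFD its levels were 77.8, 69.0 and 80.4 CPM at 0 h and 825, 649 and 1051 CPM at 24 h. The 0 h and 24 h libraries were far apart in both diets. The rise was 3.54 ± 0.17 on the log2 scale in chow (11.6-fold, edgeR adjusted p = 1.66e-10) and 3.48 ± 0.18 in HFD (11.2-fold, adjusted p = 2.04e-10). Its 2 transcript rows gave 3.54 and 3.57 in chow. Gm45244 overlaps an exon of Acsl1 on the opposite strand, and any use of strand in counting was not given in the sources.

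Cd36, the scavenger receptor and fatty acid carrier that is also a PPARγ target, was the most abundant gene of the panel and fell. Its level was 2698, 2708 and 2817 CPM in chow 0 h and 1178, 1161 and 1469 CPM in chow 24 h. On HFD the levels were 2853, 2931 and 2159 CPM at 0 h and 1156, 1434 and 1312 CPM at 24 h. HFD 0 h replicate 3, the shallowest library, was the lowest of the 0 h libraries but still above every 24 h library. Cd36 changed by -1.11 ± 0.15 in chow (2.16-fold lower, edgeR adjusted p = 1.67e-05) and -1.03 ± 0.15 in HFD (2.04-fold lower, adjusted p = 4.07e-05). The 5 transcript rows of Cd36 gave log2 ratios between -1.11 and -1.21 in chow.

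The other carriers did not pass. Slc27a1 (FATP1) ranged from 181 to 292 CPM over the 12 libraries, with LPS changes of -0.01 ± 0.13 in chow (edgeR adjusted p = 0.973) and -0.14 ± 0.13 in HFD (adjusted p = 0.474). Slc27a4 (FATP4) ranged from 40.3 to 64.3 CPM, with 0.32 ± 0.15 in chow (edgeR adjusted p = 0.135) and 0.08 ± 0.15 in HFD (adjusted p = 0.754). Its chow value passed without chow 24 h replicate 3.

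Among the 4 genes of the carnitine shuttle, Crat fell and the long-chain steps did not pass. Crat, the carnitine acetyltransferase that buffers acetyl-CoA, was at 113, 110.3 and 119.6 CPM in chow 0 h and at 73.3, 68.1 and 80.3 CPM in chow 24 h. With HFD the values were 116, 122 and 111 CPM at 0 h and 83.8, 73.5 and 70.5 CPM at 24 h. The groups did not overlap in either diet, and the log2 fold changes were -0.63 ± 0.12 in chow (edgeR adjusted p = 7.92e-04) and -0.62 ± 0.12 in HFD (adjusted p = 0.0010). Exons of Dolpp1 and Gm16323 overlap Crat on the opposite strand. Cpt1a, which makes the acylcarnitines at the outer membrane and is the controlled step of the pathway, ranged from 138 to 214 CPM, with 0.09 ± 0.15 in chow (adjusted p = 0.72) and 0.01 ± 0.15 in HFD (adjusted p = 0.959). The carrier Slc25a20 ranged from 21.1 to 34.6 CPM and Cpt2, which releases the acyl-CoA inside, from 17.5 to 22.4 CPM. Their LPS changes lay between -0.06 and 0.17 with edgeR adjusted p of 0.551 or more. The 95% intervals for Cpt1a, -0.23 to 0.42 in chow and -0.31 to 0.34 in HFD, bound any change of that gene.

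The 4 acyl-CoA dehydrogenases, which start the cycle on chains of different length, were on the low side or flat, and Acads alone passed. Acads (short chain) was at 34.1, 32.4 and 29.1 CPM in chow 0 h and at 20.8, 29.8 and 17.7 CPM in chow 24 h, which overlap. In HFD it was at 30.4, 45.05 and 38.6 CPM at 0 h and at 29.2, 27.02 and 19.7 CPM at 24 h, which do not. The log2 fold change was -0.49 ± 0.21 in chow (edgeR adjusted p = 0.0933) and -0.59 ± 0.21 in HFD (adjusted p = 0.0494). The HFD call was lost in 12 of 22 alternatives, 8 of them leaving out a library (chow 0 h replicate 1, 2 or 3, chow 24 h replicate 1, HFD 0 h replicate 2 or 3, or HFD 24 h replicate 2 or 3), with adjusted p between 0.0278 and 0.227 over all 22. The chow value passed without chow 24 h replicate 2 (-0.71, adjusted p = 0.0231). Acadm (medium chain) was lower in every 24 h library than in every 0 h library of its diet. It did not pass (-0.32 ± 0.13, edgeR adjusted p = 0.0882, and -0.29 ± 0.13, adjusted p = 0.135). Its chow value passed with upper-quartile scaling. Acadvl (very long chain) gave -0.27 ± 0.16 and -0.35 ± 0.17 and Acadl (long chain) -0.11 ± 0.15 and 0.05 ± 0.15, with adjusted p of 0.146 or more.

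Of the 6 genes from the hydratases to the thiolases, Hadha fell in both diets. Hadha encodes the α subunit of the mitochondrial trifunctional protein, which carries the hydratase and dehydrogenase steps for long chains. It was at 139, 137 and 151 CPM in chow 0 h and at 90.6, 84.1 and 93.6 CPM in chow 24 h. The HFD libraries gave 162, 169 and 99.3 CPM at 0 h and 91.0, 97.6 and 96.9 CPM at 24 h. HFD 0 h replicate 3 was close to the 24 h libraries, and the other 0 h libraries were well above them. The log2 fold changes were -0.67 ± 0.16 in chow (edgeR adjusted p = 0.00428) and -0.61 ± 0.16 in HFD (adjusted p = 0.00886). Without HFD 0 h replicate 1 or 2 the HFD value was -0.50 (adjusted p = 0.0550) or -0.47 (adjusted p = 0.0571). With a term for the lane tag the chow value was -0.57 ± 0.29 (edgeR adjusted p = 0.247). That tag marks every chow 24 h library and no chow 0 h library, so this fit rests on the 1 tagged HFD library and has a wider SE. Garem2 overlaps a Hadha exon on the opposite strand.

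Hadhb, the β subunit with the thiolase activity, did not pass in chow (-0.79 ± 0.36, edgeR adjusted p = 0.123). Its 3 chow 24 h libraries were all below the chow 0 h libraries (3.51 to 6.91 against 8.51 to 10.1 CPM). The chow value passed when only the chow groups were fitted and without HFD 0 h replicate 3. In HFD Hadhb gave -0.45 ± 0.36 (edgeR adjusted p = 0.412). Its HFD 0 h levels ran from 2.25 to 11.9 CPM, the lowest being 5 counts in replicate 3. The subunits form a single complex and lie next to each other in the genome. Hadhb values are uncertain because 62.5% of the 50-base stretches of its transcript also occur in Gm13910 or Gm9108.

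The 2 other thiolases passed in opposite directions in chow. Acaa2, the mitochondrial thiolase, fell there. It was at 25.5, 27.3 and 22.5 CPM in chow 0 h and at 16.9, 14.3 and 21.01 CPM in chow 24 h, and in HFD at 28.5, 36.6 and 29.7 CPM at 0 h and 21.1, 26.0 and 22.3 CPM at 24 h. The 24 h libraries were below the 0 h libraries in both diets. The LPS value of Acaa2 was -0.52 ± 0.17 in chow (edgeR adjusted p = 0.0334) and -0.46 ± 0.17 in HFD (adjusted p = 0.0683), where it passed with upper-quartile scaling. The chow call was lost in 8 of 22 alternatives, with adjusted p from 0.0129 to 0.585. The 8 were no filter on low counts, the lane tag as a covariate (-0.33 ± 0.31, limited as for Hadha above), and leaving out single libraries. Those libraries were chow 0 h replicate 1 or 2, chow 24 h replicate 1 or 2, or HFD 24 h replicate 2 or 3.

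Acaa1a, a peroxisomal thiolase, rose in chow. It was at 29.9, 28.8 and 28.5 CPM in chow 0 h and at 47.9, 50.1 and 41.4 CPM in chow 24 h. The HFD libraries gave 28.3, 35.3 and 58.0 CPM at 0 h and 53.2, 47.3 and 48.4 CPM at 24 h. The highest HFD 0 h level came from replicate 3, above all HFD 24 h libraries, so that diet's groups overlapped. Its LPS value was 0.68 ± 0.19 in chow (edgeR adjusted p = 0.0127) and 0.35 ± 0.19 in HFD (adjusted p = 0.209). With the lane tag as a covariate, limited as for Hadha above, the chow value was 0.52 ± 0.34 (edgeR adjusted p = 0.398). Without HFD 0 h replicate 3 the HFD value was 0.65 (adjusted p = 0.00363), and over 22 alternatives it lay between 0.14 and 0.65. By limma-voom on all libraries the HFD value was 0.50 and also passed (adjusted p = 0.0443). The value is uncertain because 34% of its 50-base stretches also occur in Acaa1b, and because Myd88, the adaptor of Toll-like receptors, overlaps its exons on the opposite strand.

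Echs1, the short-chain hydratase, and Hadh, the short-chain dehydrogenase, did not pass with LPS. Echs1 ranged from 63.9 to 100.2 CPM (-0.02 ± 0.13 in chow, 0.02 ± 0.13 in HFD, edgeR adjusted p of 0.918 and 0.926). Hadh ranged from 42.8 to 70.1 CPM (0.11 ± 0.15 and 0.12 ± 0.15, adjusted p of 0.641 and 0.623).

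The 3 genes for unsaturated chains did not pass, although Eci1 came close. Eci1, the isomerase that moves double bonds, was higher in every 24 h library than in every 0 h library of its diet, at 12.2 to 17.8 against 6.98 to 11.9 CPM in chow and 17.7 to 18.9 against 9.36 to 14.2 CPM in HFD. Its log2 fold changes were 0.62 ± 0.22 in chow (edgeR adjusted p = 0.0511) and 0.63 ± 0.23 in HFD (adjusted p = 0.0583). It passed in 10 of 22 alternatives in chow (adjusted p from 0.022 to 0.487) and in 7 of 22 in HFD (0.0341 to 0.228), and both DESeq2 and the replicate block were among them. Eci2, a peroxisomal and mitochondrial isomerase, gave 0.20 ± 0.17 and 0.29 ± 0.17 (adjusted p of 0.423 and 0.242). Decr1, the dienoyl-CoA reductase, gave -0.02 ± 0.17 and -0.03 ± 0.18 (adjusted p of 0.96 and 0.925).

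In electron transfer, Etfb fell, whereas its partner Etfa and the oxidoreductase Etfdh did not pass. Etfb, the β subunit of the flavoprotein, was at 50.3, 49.7 and 42.4 CPM in chow 0 h and at 21.7, 23.6 and 30.8 CPM in chow 24 h. In HFD it was at 55.7, 46.7 and 35.9 CPM at 0 h and at 36.0, 32.5 and 30.7 CPM at 24 h, so the chow groups were apart and the HFD groups just overlapped. The log2 fold change was -0.90 ± 0.17 in chow (edgeR adjusted p = 6.31e-04) and -0.51 ± 0.17 in HFD (adjusted p = 0.0387). The difference between the diets was 0.40 ± 0.24 (edgeR adjusted p = 1). The HFD call was lost in 13 of 22 alternatives, with adjusted p from 0.00975 to 0.244, among them leaving out any library other than chow 24 h replicate 3 and HFD 0 h replicate 3. Etfb is uncertain because 67.3% of its 50-base stretches also belong to Gm45233, whose exons overlap it on the same strand. Etfa, the α subunit, ranged from 23.4 to 40.5 CPM and Etfdh from 22.5 to 29.4 CPM, with changes between -0.16 and 0.02 and adjusted p of 0.513 or more.

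Of the 3 further PPAR targets, Ucp2 and Angptl4 changed. Ucp2, the mitochondrial inner-membrane carrier, was at 738, 863 and 1030.4 CPM in chow 0 h and at 438, 453 and 428 CPM in chow 24 h. The HFD libraries gave 1018, 858 and 789.8 CPM at 0 h and 509, 404 and 477 CPM at 24 h. All 24 h libraries were below all 0 h libraries, and the log2 fold changes were -0.997 ± 0.15 in chow (edgeR adjusted p = 5.41e-05) and -0.94 ± 0.15 in HFD (adjusted p = 1.01e-04). Dnajb13 overlaps a Ucp2 exon on the opposite strand.

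Angptl4, a secreted inhibitor of lipoprotein lipase that fatty acids induce through PPARs, fell with LPS in HFD. It was at 11.4, 17.2 and 12.1 CPM in HFD 0 h and at 4.59, 3.47 and 4.76 CPM in HFD 24 h, and in chow at 7.52, 7.29 and 6.48 CPM at 0 h and 5.82, 4.13 and 3.27 CPM at 24 h. The 3 HFD 0 h libraries were the highest of all 12, and the groups of 24 h libraries overlapped between diets. The log2 fold change was -1.69 ± 0.27 in HFD (3.22-fold lower, edgeR adjusted p = 1.18e-04) and -0.69 ± 0.26 in chow (adjusted p = 0.0641), where it passed without chow 24 h replicate 1 (-0.93, adjusted p = 0.0294), with upper-quartile scaling and with DESeq2. The difference between these LPS effects was -0.996 ± 0.37, which did not pass after adjustment (edgeR adjusted p = 1).

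Pdk4, the pyruvate dehydrogenase kinase that many tissues raise when they burn fat, had 32 counts in all. They were 11 in chow 0 h, 0 in chow 24 h, 13 in HFD 0 h (all in replicate 2) and 8 in HFD 24 h, so it was not tested.

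**Figure D3:**
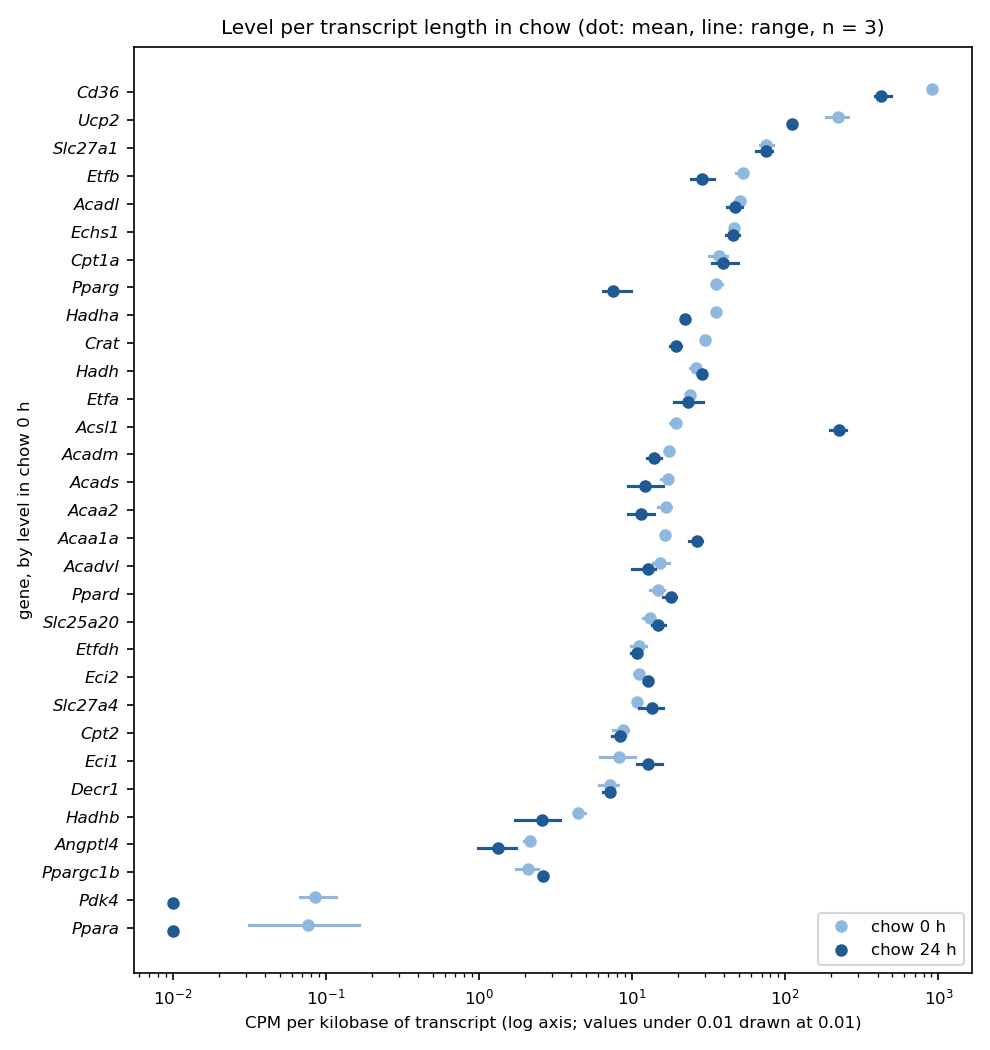
Level of all 31 genes in CPM per kilobase of transcript (horizontal log axis, values under 0.01 drawn at 0.01) in chow 0 h (light) and chow 24 h (dark), with the mean as a dot and the range of 3 libraries as a line. Cd36 leads at 909 CPM per kilobase at 0 h, Acsl1 moves from 19.3 to 224, and Pdk4 and Ppara lie under all others at 0 h.

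Per kilobase of transcript, levels in chow 0 h spanned from 909 ± 21.8 (SD, n = 3) for Cd36 to 0.0762 ± 0.0769 for Ppara. Cd36, Ucp2 (219.9 ± 36.7) and Slc27a1 (74.7 ± 7.37) led, each with libraries that did not overlap those of the next gene. Etfb (53.2), Acadl (50.2) and Echs1 (46.0) followed with overlapping ranges between neighbours, as did Cpt1a (36.9), Pparg (35.4) and Hadha (35.3). From Acadm (17.3), at rank 14, to Slc27a4 (10.8), at rank 23, each gene overlapped its neighbour. Hadhb (4.43), Angptl4 (2.15) and Ppargc1b (2.08) were the lowest of the tested genes. At 24 h Acsl1, at rank 13 before, stood at 224 CPM per kilobase, above Ucp2 at 110.2 and below Cd36 at 421. At 0 h Hadha was far above its partner Hadhb, with the uncertainty of Hadhb given above, and Etfb was above Etfa (23.9), with the uncertainty of Etfb given above.

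The 20 genes from the carnitine shuttle to electron transfer were also summed in each library, as a description with no test. The sum was 996 ± 28.1 CPM in chow 0 h, 879 ± 65.6 CPM in chow 24 h, 1100.5 ± 78.0 CPM in HFD 0 h and 993 ± 24.8 CPM in HFD 24 h (mean ± SD, n = 3). In each diet the highest 24 h library was below the lowest 0 h library, at 954 against 970.4 CPM in chow and 1016 against 1018 CPM in HFD. Most of the fall lay in Hadha, Crat and Etfb, reported above. In chow their means went from 142 to 89.5, from 114 to 73.9 and from 47.5 to 25.4 CPM. In HFD they went from 144 to 95.2, from 116 to 75.9 and from 46.1 to 33.1 CPM. Others of the 20 moved by less, in both directions, so the sum does not show a fall across the pathway. In bulk RNA, fewer cells of a type and less RNA per cell cannot be told apart.

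Diet alone moved no gene of the panel past the test. By edgeR, 0 of 29 passed at 0 h, at 24 h or averaged over both times, where the background over all genes was 0.087%, 0.00791% and 0.483%, and 0 passed the interaction, where it was 0%. The counts at an unadjusted p under 0.05 were 4 of 29 at 0 h (13.8%, against 6.15% of all genes), 3 at 24 h (10.3% against 7.86%), 8 averaged over both times (27.6% against 12%) and 1 for the interaction (3.45% against 2.35%). limma-voom also passed 0 in each comparison, and DESeq2 passed 0 except for Slc27a1 in the comparison averaged over both times. Most values had a positive sign, that is, a higher level in HFD. These were 24 of 29 at 0 h (82.8%, against 50.5% of all genes tested) and 23 of 29 at 24 h (79.3% against 50.4%). The median log2 fold changes were 0.12 at 0 h and 0.10 at 24 h, each with 0.00 over all genes, and 0.17 averaged over both times, with 0.01 over all genes. Leaving out each library in turn, the median at 0 h lay between 0.06 (without HFD 0 h replicate 2) and 0.18 (without HFD 0 h replicate 3), that at 24 h between 0.10 and 0.16 (without HFD 24 h replicate 2), and that averaged over both times between 0.11 (without HFD 0 h replicate 1) and 0.19.

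**Figure D4:**
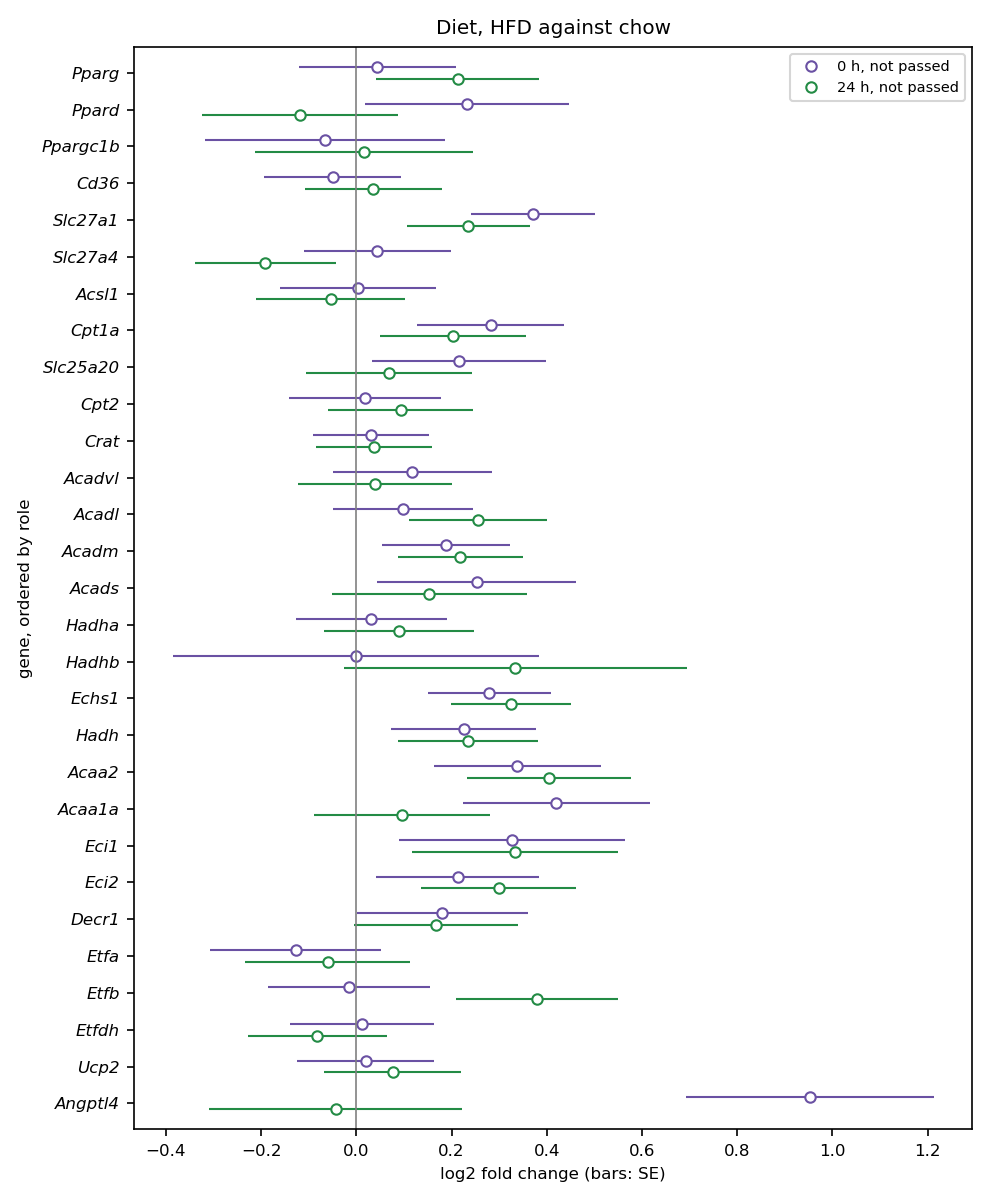
Log2 fold change of HFD against chow (horizontal axis) of the 29 tested genes, ordered by role (vertical axis), at 0 h (purple) and 24 h (green), with bars of 1 SE; open circles did not pass the edgeR test. Most circles lie right of 0, and Angptl4 at 0 h, at 0.95, is the farthest.

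Angptl4 had the largest diet value, at 7.10 ± 0.547 CPM in chow 0 h and 13.6 ± 3.17 CPM in HFD 0 h (mean ± SD, n = 3). The 0 h log2 fold change was 0.95 ± 0.26 (edgeR adjusted p = 0.310), and the 24 h value was -0.04 ± 0.26 (adjusted p = 0.986). The 0 h diet comparison and the HFD LPS comparison share the HFD 0 h libraries, so they are not separate evidence.

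For 6 genes (Cpt1a, Acadm, Echs1, Acaa2, Angptl4 and Slc27a1) all 3 HFD libraries were above all 3 chow libraries at 0 h, which is 20.7% of the panel against 5.87% of all genes tested. At 24 h this held for 7 genes (Acadm, Hadh, Echs1, Eci2, Decr1, Acaa2 and Slc27a1), or 24.1% against 6.28%. The reverse, all HFD libraries below all chow libraries, held for 0 of 29 at both times, against 6.35% and 5.99% of all genes. Acaa2, Acadm, Echs1 and Slc27a1 were in both sets of higher genes, 13.8% of the panel against 1.04% of all genes. Within a diet the sample descriptions repeat the same numbers at 0 h and 24 h, without saying what a number marks. Agreement between the times may therefore not be separate evidence.

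Echs1 was at 71.4, 68.9 and 74.6 CPM in chow 0 h and at 81.0, 81.8 and 100.2 CPM in HFD 0 h, and at 63.9, 70.4 and 77.1 CPM in chow 24 h and 84.1, 93.5 and 87.2 CPM in HFD 24 h. Averaged over both times its diet value was 0.30 ± 0.09 (edgeR adjusted p = 0.167). Slc27a1 was at 204, 191 and 231 CPM in chow 0 h against 239.9, 292 and 279 CPM in HFD 0 h, and at 229, 213 and 181 CPM in chow 24 h against 251, 247 and 235 CPM in HFD 24 h, with 0.30 ± 0.09 (adjusted p = 0.174, or 0.0424 by DESeq2). Acaa2 gave 0.37 ± 0.12 (adjusted p = 0.222) and Acadm 0.20 ± 0.09 (adjusted p = 0.403). The libraries of the 2 diets were therefore apart for these 4 genes by about 0.2 to 0.4 on the log2 scale, a size that did not pass over all genes. The lane tag falls on all 3 chow 24 h libraries and only 1 HFD 24 h library, and the 0 h libraries carry none. With the tag as a covariate the panel's median at 24 h was 0.13.

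Of the genes that passed with LPS, Pparg, Cd36, Acsl1 and Ucp2 had diet values whose intervals held 0 at both times. Pparg gave 0.04 ± 0.16 at 0 h (95% interval -0.30 to 0.39) and 0.21 ± 0.17 at 24 h (-0.15 to 0.58). Cd36 gave -0.05 ± 0.14 (-0.35 to 0.26) and 0.04 ± 0.14 (-0.27 to 0.34). Acsl1 gave 0.00 ± 0.16 (-0.34 to 0.35) and -0.05 ± 0.16 (-0.39 to 0.28). Ucp2 gave 0.02 ± 0.14 (-0.29 to 0.33) and 0.08 ± 0.14 (-0.23 to 0.38). The edgeR adjusted p of these 8 values was 0.821 or more. The intervals leave room for changes of about 0.3 to 0.6 in size, and none of these genes is shown to be the same in both diets. The diet intervals of Crat, Hadha and Acads, which also passed with LPS, held 0 at both times too. Others that passed with LPS had larger diet values that did not pass, besides Angptl4 and Acaa2 above. Examples were Acaa1a at 0 h (0.42 ± 0.20, edgeR adjusted p = 0.806) and Etfb at 24 h (0.38 ± 0.17, adjusted p = 0.624).

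Another 109 genes of the same pathways, in 5 lists, were read for context, and 90 of them were tested. Like the panel, the lists were chosen with earlier results of these data known. With LPS, 12 rose and 31 fell in chow (13.3% and 34.4%, against 13.7% and 12.9% of all genes; median -0.28) and 12 rose and 19 fell in HFD (13.3% and 21.1%, against 12.7% and 12%; median -0.13), while 0 passed in any diet or interaction comparison. Below, each list's share of genes that passed stands beside 26.6% of all genes in chow and 24.6% in HFD, and differences between lists were not tested. Of the PPAR targets and lipid droplet genes, 7 of 21 rose and 10 fell in chow (81%) and 5 rose and 7 fell in HFD (57.1%). The 3 named next had the smallest adjusted p in both diets. All of them fell, so they do not stand for the whole list. Mrc1, the mannose receptor of alternatively activated macrophages, went from 294 ± 25.6 to 39.5 ± 8.89 CPM in chow and from 281 ± 49.8 to 71.3 ± 15.6 CPM in HFD (-2.89 ± 0.20 and -1.99 ± 0.19, edgeR adjusted p = 8.97e-09 and 5.55e-07). Mgll, the monoacylglycerol lipase, fell by 2.17 and by 1.81 on the log2 scale (adjusted p = 5.35e-06 and 2.93e-05). Plin2, which coats lipid droplets, fell from 1413 ± 26.6 to 805 ± 5.98 CPM in chow and from 1523 ± 166 to 838 ± 112 CPM in HFD (adjusted p = 1.15e-04 and 6.78e-05).

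Among the partners and coregulators, 1 of 19 rose and 6 fell in chow (36.8%), and 1 rose and 3 fell in HFD (21.1%). Rxra, the obligate partner of the PPARs, fell in chow from 157 ± 9.86 to 106 ± 9.56 CPM (-0.56 ± 0.15, edgeR adjusted p = 0.00813) and in HFD (-0.43 ± 0.15, adjusted p = 0.0411). Rxrb also fell in both (-0.67 ± 0.24 and -0.93 ± 0.24, adjusted p = 0.0456 and 0.00805). Tfeb, a lysosomal and lipid regulator, fell in both diets (-1.34 ± 0.19 and -1.10 ± 0.19, adjusted p = 3.25e-05 and 2.49e-04). Ppargc1a, the relative of Ppargc1b, fell in chow from 3.06 ± 1.83 to 0.953 ± 0.462 CPM (-1.65 ± 0.47, adjusted p = 0.0143) and gave -1.05 ± 0.44 in HFD (adjusted p = 0.0940). Nrip1, a corepressor of metabolic genes, rose in both (0.50 ± 0.14 and 0.50 ± 0.15, adjusted p = 0.0148 and 0.0204).

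In the list of carnitine genes, acyl-CoA synthetases and fatty acid binding proteins, 2 of 15 rose and 5 fell in chow (46.7%), and 3 rose and 2 fell in HFD (33.3%). Fabp4, a lipid chaperone and PPARγ target, fell in both diets (-1.74 ± 0.27 and -1.50 ± 0.27, edgeR adjusted p = 1.55e-04 and 6.17e-04), whereas Fabp3 rose in chow from 2.13 ± 0.153 to 6.97 ± 1.93 CPM (adjusted p = 2.14e-04) and in HFD by 1.503 ± 0.30 (adjusted p = 0.0012). Acsf2 fell in both (-1.40 ± 0.24 and -0.84 ± 0.25, adjusted p = 2.97e-04 and 0.0188). Of the relatives of Acsl1, Acsl5 rose in both diets (0.61 ± 0.11 and 0.64 ± 0.12, adjusted p = 6.30e-04 and 4.73e-04), and Acsl4 rose in HFD (1.04 ± 0.17, adjusted p = 1.46e-04) and gave 0.41 ± 0.16 in chow (adjusted p = 0.0816).

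Of the other mitochondrial acyl-CoA enzymes, 1 of 20 rose and 5 fell in chow (30%), and 2 rose and 4 fell in HFD (30%). Pccb, a propionyl-CoA carboxylase subunit, fell in both (-1.26 ± 0.16 and -1.29 ± 0.16, edgeR adjusted p = 1.34e-05 and 1.24e-05), as did Mlycd, the malonyl-CoA decarboxylase (-0.73 ± 0.19 and -1.03 ± 0.20, adjusted p = 0.00834 and 7.83e-04). Acot9, a thioesterase, rose in both (0.57 ± 0.15 and 0.53 ± 0.15, adjusted p = 0.00716 and 0.0142), and Acot2, another, fell in both (-1.12 ± 0.30 and -1.28 ± 0.31, adjusted p = 0.0104 and 0.00494). Of the peroxisomal genes, 1 of 15 rose and 5 fell in chow (40%), and 1 rose and 3 fell in HFD (26.7%). Hsd17b4, the peroxisomal bifunctional enzyme, fell in both (-0.82 ± 0.12 and -0.75 ± 0.12, adjusted p = 4.9e-05 and 1.43e-04), as did the oxidase Acox3 (-0.78 ± 0.16 and -0.56 ± 0.16, adjusted p = 0.00118 and 0.0144). The transporter Abcd2 fell in both (-1.07 ± 0.23 and -0.67 ± 0.23, adjusted p = 0.00207 and 0.0436), and Phyh, of phytanic acid oxidation, rose in both (0.74 ± 0.19 and 0.88 ± 0.19, adjusted p = 0.00652 and 0.00222).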

How the data were processed

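RNA-seq read counts for RefSeq transcripts were deposited by the authors as whole-number counts, one column per library. Per the submitters' processing notes, CASAVA 1.8.2, STAR 2.5.2b and the mm10 build were used; the read counter, its annotation and its handling of strand were not given in the sources used here. RNA was extracted with a Qiagen kit and libraries were made with a NuGen kit, per the labels' protocols.

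Of 35745 rows, 35440 were given symbols through the RefSeq gene table, 188 through GENCODE and 117 had none. The row with the highest mean count stood for each of 24562 genes (6089 had several). Library totals over these genes, 2360244 to 20688308, set the precision. Low genes were removed with edgeR's filterByExpr, and 12641 genes were fitted in R 4.3.3 with edgeR 4.0.16 (TMM, robust quasi-likelihood) as 4 group means over 12 libraries. The 6 contrasts were LPS in each diet, diet at each time, their interaction and diet averaged over both times. DESeq2 1.42.0 and limma 3.58.1 (voom) were alternatives, as were other scalings, filters, a summed row, the lane tag, a replicate block and leaving out each library. No pair of libraries held the same values. CPM are per TMM-scaled total.

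All 31 members are accounted for. Every library's value is given for members that passed any of the 6 contrasts, for the PPARs and Ppargc1b, and for the highest member. For each of 5 further lists the up to 3 genes of smallest adjusted p per LPS contrast are named. The members and lists were chosen with earlier results of these data known. Values of every library for Echs1 and Slc27a1, and the values for Eci1, were added after seeing them.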

Additional observations from a re-analysis of the deposited data

How the results depend on the processing

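Each comparison was recomputed under 22 alternatives (21 for the interaction and for diet averaged over both times). Single-gene values were kept for the 11 members that passed with LPS and for Eci1, in both LPS comparisons. They were also kept for Echs1, Slc27a1, Acaa2 and Acadm in diet averaged over both times, and for Angptl4 in diet at 0 h. None of these values reversed, and reversal was not checked for other members or comparisons. Pparg, Acsl1, Cd36, Ucp2 and Crat passed in all 22 in both diets, Etfb in all 22 in chow and Angptl4 in all 22 in HFD. Leaving out a library gave 8 to 11 members in chow and 7 to 10 in HFD for LPS, and 0 in the 4 other comparisons; without HFD 0 h replicate 3, the shallowest library, LPS gave 11 and 9. The lane tag as a covariate gave 6 in chow (without Hadha, Acaa1a and Acaa2) and 9 in HFD; since it marks every chow 24 h library and no chow 0 h library, that fit rests on the 1 tagged HFD library. Upper-quartile scaling gave 11 and 10, and took the median of all genes to -0.06 and -0.08. DESeq2 passed 1 member (Slc27a1) for diet averaged over both times in place of 0; the cause was not tested.

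The replicate block gave 10 members in each diet for LPS (Eci1 added to the 9) and 0 for diet and the interaction. The sample descriptions repeat the same numbers at 0 h and 24 h within a diet (1, 2 and 3 in chow, 4, 6 and 7 in HFD), without saying what a number marks; between diets only the replicate numbers of the titles match. Deviations of same-numbered libraries correlated at 0.0909 to 0.346 in chow and 0.0293 to 0.263 in HFD for LPS, and at -0.139 to -0.0116 and -0.11 to 0.213 for diet. For LPS, libraries of different number correlated at -0.307 to 0.109 in chow and -0.185 to 0.0906 in HFD. The same-numbered libraries were thus on the higher side, and they may share a source. Since the labels do not say so, the main fit did not take the numbers as pairs. The replicate block took them as pairs for LPS. For LPS 5 of 6 libraries in chow and 4 of 6 in HFD correlated best with their own number, and 0 of 6 and 3 of 6 for diet at 0 h and 24 h. A change in Ppara or Pdk4 was hard to see at this depth. Hadhb passed for LPS in chow when only the chow groups were fitted and without HFD 0 h replicate 3.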
